A study of Mus musculus with 44 samples.

Results

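Small RNA was compared between the hypothalamus of obese mice given an oligonucleotide against miR-132 and that of obese mice given a control oligonucleotide, within the batch that the labels number 2. The group and batch labels alone chose the libraries: 8 AM132 and 8 AM608 libraries, numbered 5 to 12 in each group, or 16 of the 44 libraries of the series. All C57Bl/6J mice of both groups ate a high fat diet for 11 weeks, so diet-induced obesity is shared by AM132 and AM608. AM132 mice then received a 16-mer with locked nucleic acid (LNA) protection that pairs with mature miR-132. AM608 mice received an LNA 15-mer against miR-608, a miRNA of primates, as the control. Both were injected intravenously at 3.3 mg/kg on 3 days in a row, and tissue was taken 7 days after treatment. The 4 RCD libraries of the same batch came from age-matched lean mice on regular chow that the labels do not describe as injected, and they are quoted only as a level. Each title names 1 mouse, and no label ties an AM132 mouse to an AM608 mouse.

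A microRNA is cut from a hairpin precursor whose 2 arms, 5p and 3p, can each become a mature strand, and the strand that is kept pairs with messenger RNAs through its seed, the bases 2 to 8. miR-132 and its neighbour miR-212 are neuronal miRNAs induced by activity and by the transcription factor CREB. An anti-miR oligonucleotide binds the mature strand it was designed against. tRNA fragments (tRFs) are pieces of transfer RNAs cut by nucleases such as angiogenin, and those that begin at the 5' end of the tRNA are called 5'-halves when the cut lies in the anticodon loop and 5'-tRFs when it lies elsewhere.

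The strands on which the comparison turns are shown first, since the target, its seed partner and the 2 miRNAs with the smallest p values differ in sequence. The sequences are those of RefSeq for GRCm38.p6, which matched 483 of the 566 tested miRNAs by name. They are written 5' to 3' with the seed in capitals. miR-132-3p, taken here as the mature miR-132 that the AM132 oligonucleotide pairs with, lies at chr11:75173723-75173744 on the plus strand:
miR-132-3p: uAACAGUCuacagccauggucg
miR-132-5p is the other arm of that hairpin, at chr11:75173686-75173707:
miR-132-5p: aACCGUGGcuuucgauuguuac
miR-212-3p, at chr11:75173443-75173464, was the only other tested miRNA with a sequence and the seed of miR-132-3p:
miR-212-3p: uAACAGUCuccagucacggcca
An intron of 1700016P03Rik, a noncoding gene, holds both hairpins. miR-34c-3p (chr9:51103044-51103065, minus strand) and miR-34b-3p (chr9:51103574-51103595, minus strand) also share a seed, and their hairpins lie within an intron of Btg4 on the opposite strand:
miR-34c-3p: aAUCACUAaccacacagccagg
miR-34b-3p: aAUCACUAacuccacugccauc
let-7b-3p lies at chr15:85707379-85707400 on the plus strand in an exon of the noncoding gene Lncppara, and let-7a-1-3p at chr13:48538188-48538209 on the minus strand:
let-7b-3p: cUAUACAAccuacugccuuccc
let-7a-1-3p: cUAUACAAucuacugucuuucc

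The 16 libraries held 3020192 to 4891045 miRNA counts (median 3710754) and 53683 to 125910 tRF counts (median 84601.5). Levels are CPM, counts relative to a library's total over the tested features of their table, with TMM factors (trimmed mean of M values). Sums given before scaling are relative to the library's full total in its table. Fold changes are log2, AM132 over AM608, with their SE. Brain miRNAs were abundant in every library, with miR-9-5p between 73288 and 92329 CPM. Some libraries stood apart from the others. AM132 6 had 23 miRNAs more than 2 log2 units from the median of the other libraries, AM608 5 had 10 and AM132 5 had 5, while the next, AM608 8 and AM608 9, had 3 each. The epithelial list (miR-200 family, miR-141, miR-429, miR-205 and miR-203; 6 of 12 members tested) summed to 19927 CPM in AM132 6, 7280 in AM608 5 and 1117 in AM132 5, and to 168 to 771 CPM in the remaining libraries, before scaling. The muscle list (miR-1, miR-133, miR-206 and relatives) summed to 3173 CPM in AM132 6 and to 414 to 684 CPM in the others, also before scaling. These libraries were kept, and values without them are given where they move a result.

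**Figure D1:**
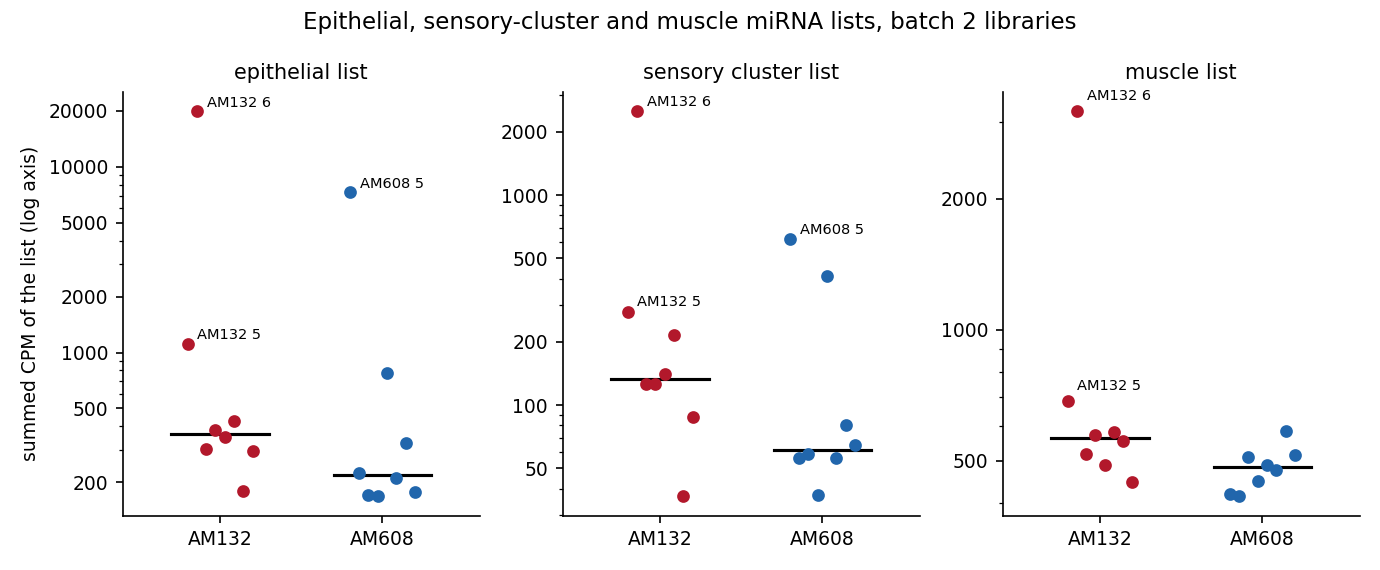
Summed CPM before TMM scaling (log axis) of the epithelial, sensory-cluster (miR-183, miR-96 and miR-182) and muscle miRNA lists in each library, AM132 in red and AM608 in blue, with a black line at the group median. AM132 6 is the highest AM132 library in all 3 panels (19927, 2506 and 3173 CPM), and AM608 5 is the highest AM608 library in the epithelial and sensory panels (7280 and 618 CPM).

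The target of the oligonucleotide was lower in every AM132 library than in any AM608 library. miR-132-3p had 74.1 CPM in the lowest AM132 library, a median of 451 and 609 in the highest, against 628, 741 and 869 CPM in AM608. The groups did not overlap, although the highest AM132 library and the lowest AM608 library were close, at 9.25 and 9.30 log2 CPM. In counts this was 253 to 2524 reads per AM132 library and 1929 to 3637 per AM608 library. On the log2 CPM scale AM132 averaged 8.61 ± 0.99 and AM608 9.54 ± 0.15 (SD over 8 libraries), so that they differed by -0.93 (exact permutation test over 12870 splits, 2-sided p = 0.000155, the smallest this design can give). Without AM132 6, the lowest library, the exact permutation test gave a difference of -0.60 (p = 0.000155). The RCD libraries of the batch, scaled with the RCD libraries added, had 752 to 833 CPM, within the range printed for AM608.

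In the fit over all 566 tested miRNAs, the fall in miR-132-3p did not pass after adjustment with every library in. The log2 fold change was -0.74 ± 0.27, lower in 8 of 8 AM132 libraries, with an adjusted p of 0.614 in edgeR's quasi-likelihood test with Benjamini-Hochberg adjustment. AM132 6 decided this: without it the change was -0.58 ± 0.10 and the adjusted p 0.00723, so that the change was smaller in size, with a smaller error, and passed. Without AM132 5, AM132 6 and AM608 5 it was -0.51 ± 0.10 (edgeR adjusted p = 0.0292). AM132 6 is also the library with the highest epithelial and muscle sums, whose part in its low miR-132-3p was not tested. Over the 32 libraries of batches 1 to 3, miR-132-3p stood at -0.17 ± 0.30 for batch 1, -0.74 ± 0.22 for batch 2 and -0.19 ± 0.30 for batch 3, and batch 2 differed from the others by -0.57 ± 0.30 (edgeR adjusted p = 0.9996). Only 2 of the 566 tested miRNAs (0.353%) had groups that did not overlap, miR-132-3p below and miR-34c-3p above.

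The other 3 arms of the miR-132 and miR-212 cluster did not pass. miR-132-5p, the partner arm, had 1084 to 1410 CPM in AM132 (median 1216) and 1078 to 1390 in AM608 (median 1246). miR-212-3p, which has the same seed as the target, had 33.7 to 56.1 CPM in AM132 (median 45.9) and 40.7 to 62.3 in AM608 (median 48.0). The ranges of AM132 and AM608 overlapped throughout for both. The log2 fold changes were -0.04 ± 0.06 for miR-132-5p, -0.10 ± 0.12 for miR-212-3p and 0.08 ± 0.08 for miR-212-5p (edgeR adjusted p = 0.980 each). Of the reads that carry the shared seed, miR-132-3p made up 68.8% in the lowest AM132 library, a median of 91.0% and 92.8% in the highest, against 93.3%, 93.7% and 94.6% in AM608. Every AM132 library lay below every AM608 library, but the nearest ones were not apart beyond counting error. The Wilson 95% interval was 91.7 to 93.8% for AM132 7 and 92.4 to 94.1% for AM608 5. The lowest library was AM132 6, with 253 of 368 such reads (Wilson 95% interval 63.8 to 73.3%, counting error only).

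**Figure D2:**
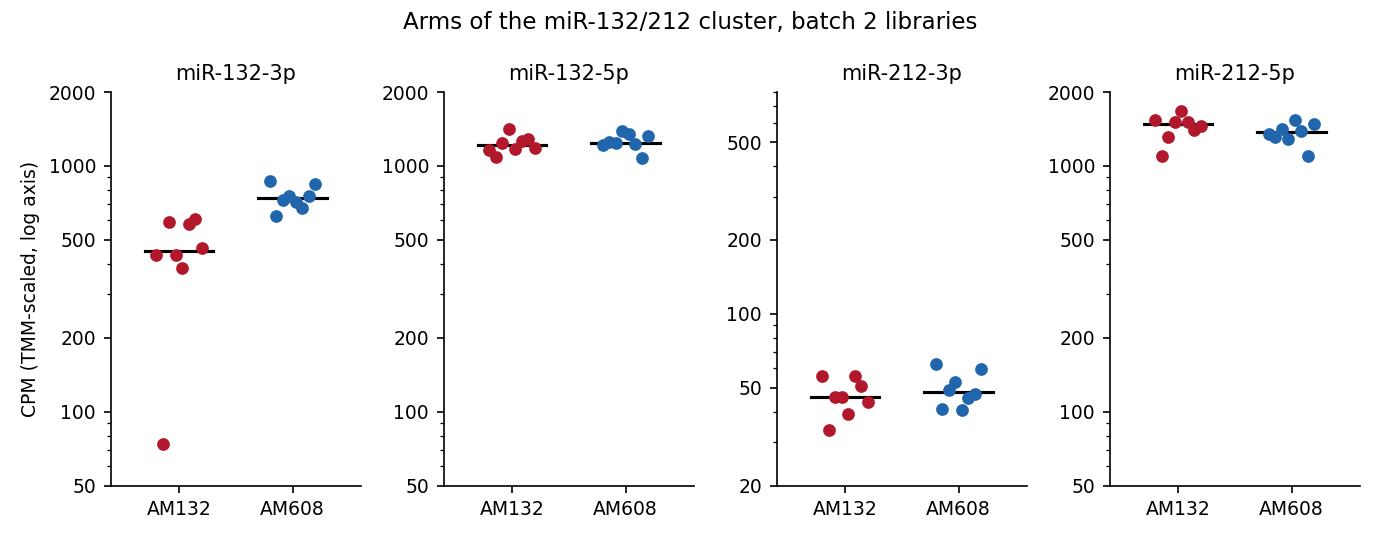
CPM (TMM-scaled, log axis) of the 4 arms of the miR-132 and miR-212 cluster in each library, AM132 in red and AM608 in blue, with a black line at the group median. miR-132-3p lies lower in all 8 AM132 libraries, with AM132 6 at 74.1 CPM, while the other arms overlap between the groups.

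A ratio of the 2 arms of a hairpin compares strands within a library and needs no scaling between libraries. For miR-132 the log2 of 3p over 5p stood at -3.85 in the lowest AM132 library, a median of -1.39 and -1.07 in the highest, against -0.998, -0.81 and -0.49 in AM608. The groups did not overlap, the only such case among the 178 hairpins with both arms tested (0.562%). Yet 4 other ratios had a smaller p, and the difference was -0.89 ± 0.30 with an adjusted p of 0.277 in limma. Without AM132 6 the difference was -0.58 and the limma adjusted p was 0.00986.

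Across all miRNAs 1 passed. Of 566 tested miRNAs 1 rose, miR-34c-3p, and 0 fell in edgeR at an adjusted p of 0.05, or 0.177% of those tested, and DESeq2 called 2. At an unadjusted p under 0.05 there were 41 miRNAs (7.24%), 23 of them higher and 18 lower in AM132. The median log2 fold change over all tested miRNAs was 0.01. In the 32 AM132 and AM608 libraries of batches 1 to 3, the effect in batch 2 differed from the mean effect in the other 2 batches for 0 of 611 miRNAs (0%), with 28 at an unadjusted p under 0.05 (4.58%).

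**Figure D3:**
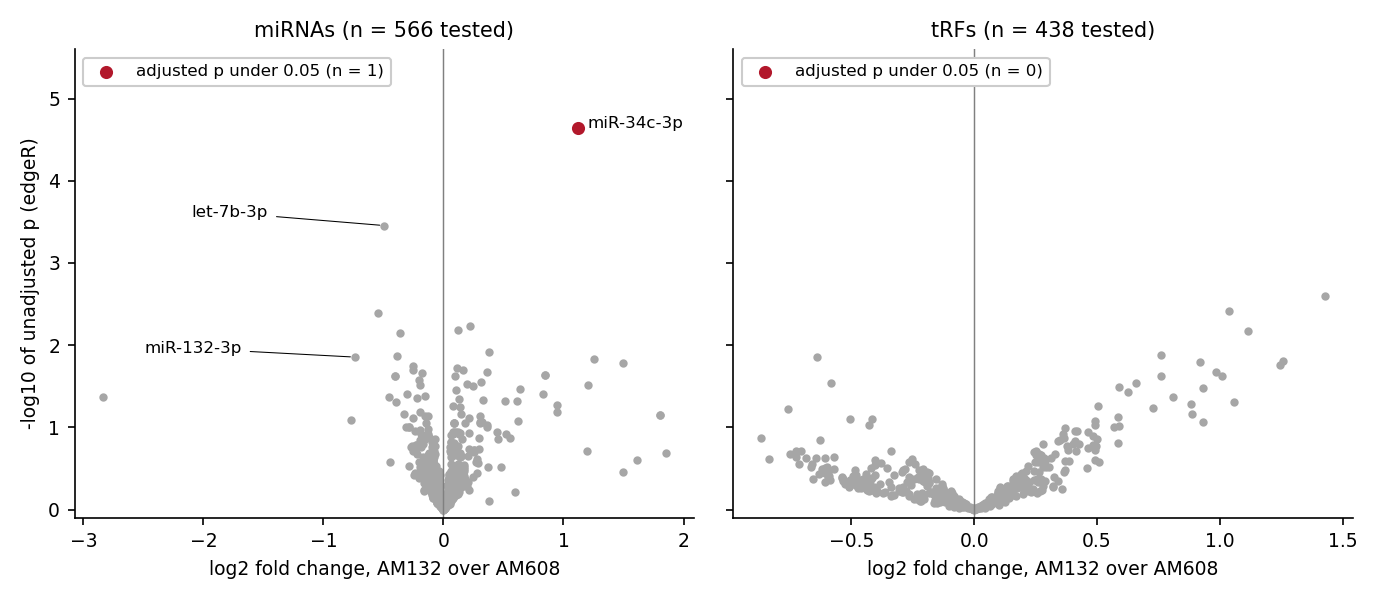
Log2 fold change of AM132 over AM608 (x axis) against -log10 of the unadjusted edgeR p (y axis) for the 566 tested miRNAs (left) and 438 tested tRFs (right). One miRNA, miR-34c-3p, passes adjustment and is drawn in red; the tRF panel holds 0 such points.

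miR-34c-3p is the less abundant strand of the miR-34c hairpin, a family known for its response to p53 and its abundance in ciliated cells. It had 33.3 CPM in the lowest AM132 library, a median of 43.4 and 95.1 in the highest, against 18.4, 22.3 and 28.4 CPM in AM608. All 8 AM132 libraries lay above all 8 AM608 libraries, and the 2 highest were AM132 6 and AM132 5, at 95.1 and 63.3 CPM. These levels rest on 133 to 325 counts per AM132 library and 61 to 111 per AM608 library. The log2 fold change was 1.12 ± 0.19 (edgeR adjusted p = 0.0128; higher in 8 of 8). The epithelial list was also highest in AM132 6 and AM132 5 within AM132; without these and AM608 5 the rise of miR-34c-3p was 0.87 ± 0.11 (edgeR adjusted p = 0.000466). The call ended without AM608 7, AM608 9 or AM608 10, with edgeR adjusted p values of 0.0577, 0.0514 and 0.0568 and fold changes of 1.07, 1.11 and 1.08. The RCD libraries of batch 2 had 25.96 to 31.9 CPM, scaled with the RCD libraries added, whereas the AM132 and AM608 values were scaled without them. As printed, the AM608 median lay below all 4 RCD libraries. The AM132 libraries lay above all 4, the lowest (33.3 CPM) by a gap that a common scaling could change. In a fit of the 32 libraries miR-34c-3p stood at 0.16 ± 0.36 for batch 1, 1.102 ± 0.18 for batch 2 and 0.75 ± 0.37 for batch 3. The difference between batch 2 and the mean of the others was 0.65 ± 0.32 (edgeR adjusted p = 0.9996).

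The other members of the miR-34 and miR-449 family did not pass, and the list had 1 called member among 6 tested of 11, with a median log2 fold change of 0.03 against 0.01 over all tested miRNAs. miR-34c-5p, the abundant arm of the same hairpin, had 1235 to 1678 CPM in AM132 (median 1550) and 1238 to 1518 in AM608 (median 1387), a change of 0.12 ± 0.07. miR-34b-3p, which shares the seed of miR-34c-3p, had 82.0 to 160 CPM in AM132 (median 146) and 130 to 185 in AM608 (median 154), a change of -0.19 ± 0.11. The ranges overlapped for both, and the edgeR adjusted p was 0.807 for each. miR-34a-5p, miR-34b-5p and miR-449a-5p lay between -0.04 and 0.06. The log2 ratio of miR-34c-3p to miR-34c-5p was the one arm ratio of 178 (0.562%) that passed: -5.47, -5.08 and -3.68 (lowest, median and highest) in AM132 against -6.25, -5.83 and -5.42 in AM608. The ranges of the ratio overlapped slightly, with a difference of 0.92 ± 0.20 (limma adjusted p = 0.0401). It passed in 6 of 16 fits that each left out 1 library.

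**Figure D4:**
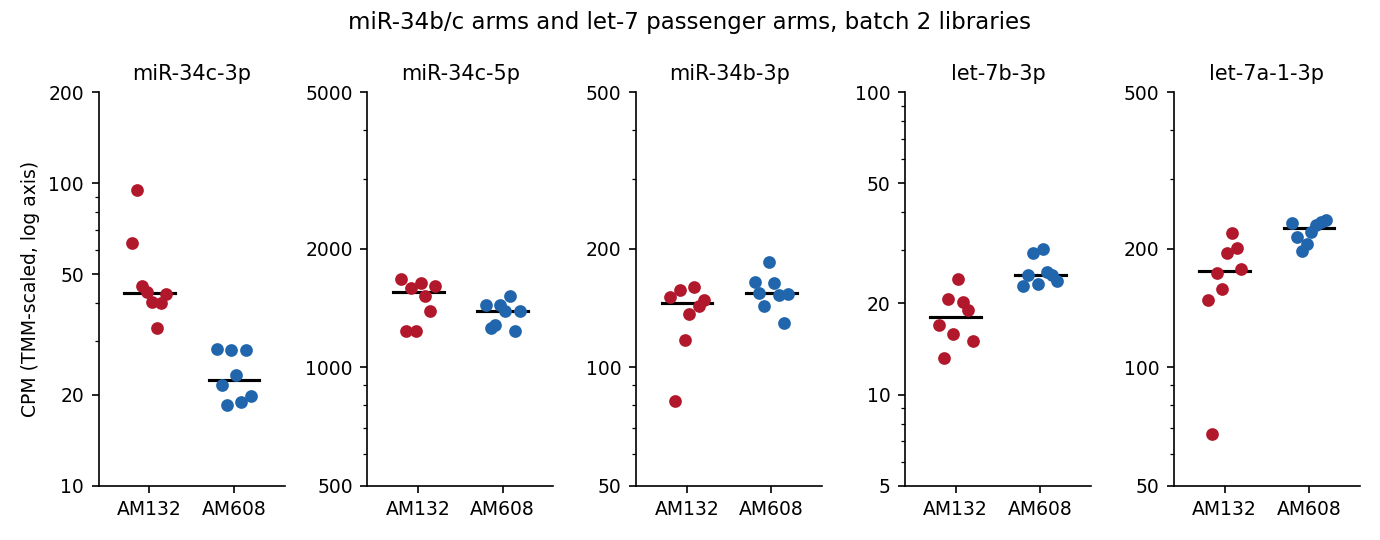
CPM (TMM-scaled, log axis) of miR-34c-3p, its partner arm miR-34c-5p, its seed partner miR-34b-3p, and the let-7 passenger arms let-7b-3p and let-7a-1-3p in each library, AM132 in red and AM608 in blue, with a black line at the group median. The AM132 points lie above the AM608 points for miR-34c-3p (medians 43.4 and 22.3 CPM) and mostly below them for both let-7 arms.

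The passenger arms of let-7 hairpins, the strands that are mostly discarded, gave the next smallest p. let-7b-3p had 13.2 CPM in the lowest AM132 library, a median of 17.999 and 24.1 in the highest, against 22.8, 24.8 and 30.2 CPM in AM608. The groups overlapped between 22.8 and 24.1 CPM. The log2 fold change was -0.50 ± 0.11, with 8 of 8 AM132 libraries below the AM608 mean, and edgeR's adjusted p of 0.0991 missed the threshold. The count was 45 to 88 per AM132 library and 76 to 118 per AM608 library. let-7b-3p passed in DESeq2 (adjusted p = 0.0082) and in limma-voom with sample quality weights (adjusted p = 0.0168). Without AM132 5, AM132 6 and AM608 5 it stood at -0.44 ± 0.12 (edgeR adjusted p = 0.260). The fit of 32 libraries put let-7b-3p at -0.19 ± 0.19 for batch 1, -0.50 ± 0.13 for batch 2 and -0.32 ± 0.19 for batch 3.

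let-7a-1-3p, with the same seed, had 67.6, 175 and 220 CPM (lowest, median and highest) in AM132 against 197, 225 and 237 in AM608, a log2 fold change of -0.40 ± 0.16 (edgeR adjusted p = 0.614). Its lowest value was again AM132 6, and without the 3 libraries that stood apart the change was -0.23 ± 0.08. let-7c-2-3p is identical in sequence and had the same values, so the 2 are 1 measurement. let-7f-1-3p (-0.24 ± 0.14) and miR-98-3p (0.01 ± 0.14) complete the tested miRNAs with this seed. Of the 11 tested passenger arms in the list, with that single measurement counted under both names, 7 had a negative fold change, 0 passed and the median was -0.09; let-7g-3p, with another seed, stood at -0.39 ± 0.14. The 9 guide arms, the strands that are loaded to repress targets, all had positive fold changes with a median of 0.06 and 0 calls, led by let-7g-5p (0.08 ± 0.04) and let-7e-5p (0.09 ± 0.05), and 6 of 9 were positive without AM132 6.

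The remaining miRNAs among the 5 of smallest p each had 8 of 8 AM132 libraries on one side of the AM608 mean and an edgeR adjusted p of 0.614. miR-3084-5p had 3.51 to 8.07 CPM in AM132 and 5.79 to 10.9 in AM608 (-0.54 ± 0.16). miR-135a-2-3p had 43.03 to 51.5 CPM in AM132 and 33.2 to 45.5 in AM608 (0.22 ± 0.07). miR-101a-3p, an abundant miRNA, had 3717 to 4155 CPM in AM132 and 3476 to 3937 in AM608 (0.12 ± 0.04). The ranges overlapped for all 3. miR-194-5p, named in the study's title, had 303 to 453 CPM in AM132 and 308 to 401 in AM608 (-0.05 ± 0.08; edgeR adjusted p = 0.984).

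The target and the called miRNA share a stretch of letters outside their seeds. Here capitals mark the longest run common to miR-132-3p and miR-34c-3p:
miR-132-3p: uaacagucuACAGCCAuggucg
miR-34c-3p: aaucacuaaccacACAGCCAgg
The run is 7 nt long. Among the other 482 tested miRNAs with a sequence, 11 (2.28%) share a run of 7 nt or more with miR-132-3p, and the median longest run is 4 nt. miR-135a-2-3p is one of them, with its run in capitals:
miR-135a-2-3p: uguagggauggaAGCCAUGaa
Of the 11, 5 had a positive and 6 a negative log2 fold change, with a median of -0.0018, and only miR-34c-3p passed. The longest shared runs, 9 nt, were those of miR-212-3p (-0.10 ± 0.12) and let-7f-2-3p (-0.03 ± 0.17). This comparison of sequences was made after the values were seen, and shared letters are a description. The sequence of either oligonucleotide is not given in the sources used here.

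Lists of miRNAs for cell types and pathways held no further call; in whole tissue, fewer cells of a type and less RNA per cell cannot be told apart. The neuronal list (17 tested) had a median log2 fold change of -0.02, led by miR-153-3p (-0.09 ± 0.06) and miR-9-5p (0.07 ± 0.05). The list of activity-dependent neuronal miRNAs had 7 of 8 members negative with a median of -0.09, with miR-132-3p and miR-188-5p (-0.26 ± 0.14) of smallest p. Its sum before scaling was lowest in AM132 6 (7296 CPM). The neuronal (132105 CPM) and energy balance (6810 CPM) sums were also lowest there, so this is not particular to activity-dependent miRNAs. Other lists summed highest in that library. Without AM132 6 the activity-dependent list had 2 of 8 positive and a median of -0.051. Without AM132 5, AM132 6 and AM608 5 it had 3 of 8 positive and a median of -0.024. The energy balance list had a median of 0.06, led by miR-764-5p (0.36 ± 0.14) and miR-873a-5p (0.13 ± 0.06). The oligodendrocyte list was negative in 4 of 4, led by miR-338-3p (-0.17 ± 0.12) and miR-219a-5p (-0.17 ± 0.14). The astrocyte list had a median of -0.05, led by miR-29c-5p (-0.13 ± 0.07) and miR-29b-3p (-0.05 ± 0.06), and the choroid plexus list -0.04, led by miR-211-5p (0.26 ± 0.19) and miR-204-5p (-0.04 ± 0.05). For the erythroid list the median was 0.19, led by miR-486b-5p (0.13 ± 0.15) and miR-144-5p (0.24 ± 0.28). That median was 0.12 without AM132 6 and 0.0016, with 3 of 5 positive, without AM132 5, AM132 6 and AM608 5.

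Single libraries moved the fold changes of other lists. The epithelial list had a median log2 fold change of 1.04 over 6 tested members, -1.70 without AM132 6 and 0.21 without AM132 5, AM132 6 and AM608 5. miR-200b-3p, its second member by p after miR-203-3p (0.52 ± 0.32, and 0.021 without AM132 6), had 18.98, 84.4 and 7831 CPM (lowest, median and highest) in AM132 against 12.9, 31.1 and 1990 in AM608 (1.85 ± 1.41). The sensory cluster, whose members miR-96-5p (1.80 ± 0.93) and miR-182-5p (1.80 ± 0.93) are known from hair cells and photoreceptors, had a median of 1.80, and -0.23 and 0.24 in the same 2 fits. The muscle list had 0.73, then 0.13 and 0.09, led by miR-1a-3p (1.25 ± 0.46) and miR-133a-3p (1.497 ± 0.56), with miR-1a-3p at 291, 396 and 3339 CPM in AM132 against 274, 321 and 368 in AM608. Without AM132 6 these stood at 0.29 for miR-1a-3p and 0.28 for miR-133a-3p. The lipid list had a median of 0.04, and its leading member miR-148a-3p (1.20 ± 0.51) reached 161730 CPM in AM132 6, against an AM132 median of 15965, and miR-378a-3p (0.62 ± 0.29) was also highest there. Without AM132 6 the changes were 0.087 for miR-148a-3p and 0.12 for miR-378a-3p. miR-375-3p, a miRNA of endocrine cells, had a change of -2.84 ± 1.29, with a median of 121 CPM in AM132 against 91.5 in AM608 and 16070 CPM in AM608 5, and the change was 0.63 in DESeq2 and 0.03 without the 3 libraries. miR-7a-2-3p, of the same pituitary list (median -0.15), stood at -0.30 ± 0.14. The Hox-linked (miR-10b-5p 0.94 ± 0.45, miR-10a-5p 0.32 ± 0.18), vascular (miR-143-3p 0.64 ± 0.28, miR-145a-3p 0.31 ± 0.17), myeloid (miR-142a-5p 0.30 ± 0.16, miR-21a-5p 0.21 ± 0.16) and miR-192, miR-194 and miR-215 (miR-192-5p 0.24 ± 0.10, miR-215-5p -0.14 ± 0.15) lists were also summed highest in AM132 6 within AM132. Before scaling, the last of them summed to 729 CPM there, 638 CPM in the next AM132 library and 723 CPM in AM608 11. Without AM132 6 the changes were 0.16 for miR-10b-5p, 0.13 for miR-10a-5p, 0.27 for miR-143-3p, 0.11 for miR-145a-3p, 0.12 for miR-142a-5p, -0.019 for miR-21a-5p, 0.13 for miR-192-5p and -0.24 for miR-215-5p. The list medians were then 0.14 (Hox-linked), 0.11 (vascular), 0.0051 (myeloid) and -0.12 (miR-192, miR-194 and miR-215), against 0.63, 0.31, 0.15 and -0.05 with every library in. All of these had an edgeR adjusted p of 0.614 or more. The part of other tissue in any of these values was not tested.

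No tRF passed between the groups. Of 438 tested tRFs, which hold 93.4% of the tRF counts, edgeR called 0 (0%) and DESeq2 0, the smallest edgeR adjusted p was 0.848, and 18 (4.11%) lay below an unadjusted p of 0.05. The 4.11% is no more than this cut-off would pass with no difference between the groups. All 16 higher ones among the 18 were 5' fragments of 30 to 35 nt, whereas 5' fragments were 30.59% of the tRFs tested. Several of the 16 are nested pieces of the same tRNA, so they are not separate results. The 2 lower ones were internal fragments, tRF-23-WUH6QE3005 and, of GlyGCC, tRF-36-9LON4VN1EH6KK80 (-0.58 ± 0.24). The batch 2 effect differed from that in batches 1 and 3 for 0 of 754 tRFs (0%), with 26 at an unadjusted p under 0.05 (3.45%).

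The fragments with the smallest p came from the 5' end of the histidine tRNA HisGTG, which carries an extra G before its first base that an enzyme adds after transcription. They are shown because they are nested pieces of 1 tRNA that differ only at the 3' end; capitals mark the bases beyond the shortest:
tRF-31-6SXMSL73VL4YD: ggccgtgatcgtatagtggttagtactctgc
tRF-32-6SXMSL73VL4YK: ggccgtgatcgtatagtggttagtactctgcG
tRF-35-6SXMSL73VL4YMY: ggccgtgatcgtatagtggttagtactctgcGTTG
tRF-37-6SXMSL73VL4YMYP: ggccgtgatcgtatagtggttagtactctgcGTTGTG
tRF-31-6SXMSL73VL4YD had 420, 901 and 2117 CPM (lowest, median and highest) in AM132 against 164, 461 and 760 in AM608. The ranges overlapped, and 8 of 8 AM132 libraries lay above the AM608 mean, with a log2 fold change of 1.43 ± 0.40 (edgeR adjusted p = 0.848). tRF-32-6SXMSL73VL4YK had 480, 840 and 2042 CPM in AM132 against 311, 522 and 739 in AM608 (1.04 ± 0.31; edgeR adjusted p = 0.848). In the nested set of 7, from 31 to 37 nt, the log2 fold changes were 1.43, 1.04, 0.93, 0.59, 0.98, 0.37 and -0.08. The 31 nt fragment stood at 0.31 ± 0.49 for batch 1, 1.32 ± 0.36 for batch 2 and 0.67 ± 0.49 for batch 3. Nested fragments share a tRNA and are not separate results, and the longer ones were chosen after the values were seen.

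Glutamate, valine and glutamine tRNAs gave the other 3 of the 5 smallest p, all with an edgeR adjusted p of 0.947:
tRF-30-86J8WPMN1E8Y: tcccacatggtctagcggttaggattcctg
tRF-34-R9JP9PMNH5SYHQ: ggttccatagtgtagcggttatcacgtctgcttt
tRF-23-WUH6QE3005: tctgaatccagcgatccgagttc
tRF-30-86J8WPMN1E8Y, a 5'-tRF of GluTTC, had 313, 604 and 2017 CPM in AM132 against 152, 345 and 623 in AM608 (1.11 ± 0.36). tRF-34-R9JP9PMNH5SYHQ, a 5'-half of ValTAC, had 120, 252 and 368 CPM in AM132 against 63.5, 131 and 215.2 in AM608 (0.76 ± 0.27). tRF-23-WUH6QE3005, an internal fragment of GlnCTG, went the other way, with 61.6, 143 and 178 CPM in AM132 against 95.02, 237 and 281 in AM608 (-0.64 ± 0.23, 8 of 8 AM132 libraries below the AM608 mean). The ranges overlapped for each. With 53683 to 125910 tRF counts per library, the lowest of these levels rest on few reads.

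Sorted by length, the short 5' fragments lay on one side. All 15 tested 5' fragments of 30 to 31 nt had a positive log2 fold change, from 0.26 to 1.43 with a median of 0.88, and 8 of them had an unadjusted p under 0.05; over all 438 tested tRFs 200 were positive and the median was -0.04. The 15 come from 7 tRNAs or sets of tRNAs (histidine, glutamate, glutamine, glycine and lysine among them), and several overlap. At 32 to 33 nt 19 of 20 were positive with a median of 0.44, at 34 to 36 nt 16 of 34 with a median of -0.05, at 37 to 50 nt 13 of 31 with a median of -0.04, and at 16 to 29 nt 25 of 34 with a median of 0.14. The length classes were drawn after the values were seen, and fragments of 1 library rise and fall together, so no test is given. The 15 fragments made up 1.34, 3.63 and 9.75% of a library's tRF counts (lowest, median and highest) in AM132, against 1.14, 2.56 and 3.128% in AM608. AM132 8 and AM132 5 were the highest, and 5 of the AM132 libraries exceeded every AM608 library.

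Without AM132 5, AM132 6 and AM608 5 the 30 to 31 nt class was positive in 13 of 15, with a median of 0.64 and 0 at an unadjusted p under 0.05. Without AM132 12 and AM608 8, the libraries with the most long lysine fragments, it was positive in 15 of 15 with a median of 1.05. With RLE scaling, which lowered the median of all tRFs to -0.12, it was 0.79. In the fit of 32 libraries the same 15 fragments were positive in 9 with a median of 0.03 in batch 1. They were positive in 15 with a median of 0.79 in batch 2, and in 12 with a median of 0.31 in batch 3. Over all 754 tRFs of that fit, 382, 309 and 396 were positive in batches 1, 2 and 3. In edgeR's test of a difference between batch 2 and the others 0 of the 15 passed, with 0 below an unadjusted p of 0.05.

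**Figure D5:**
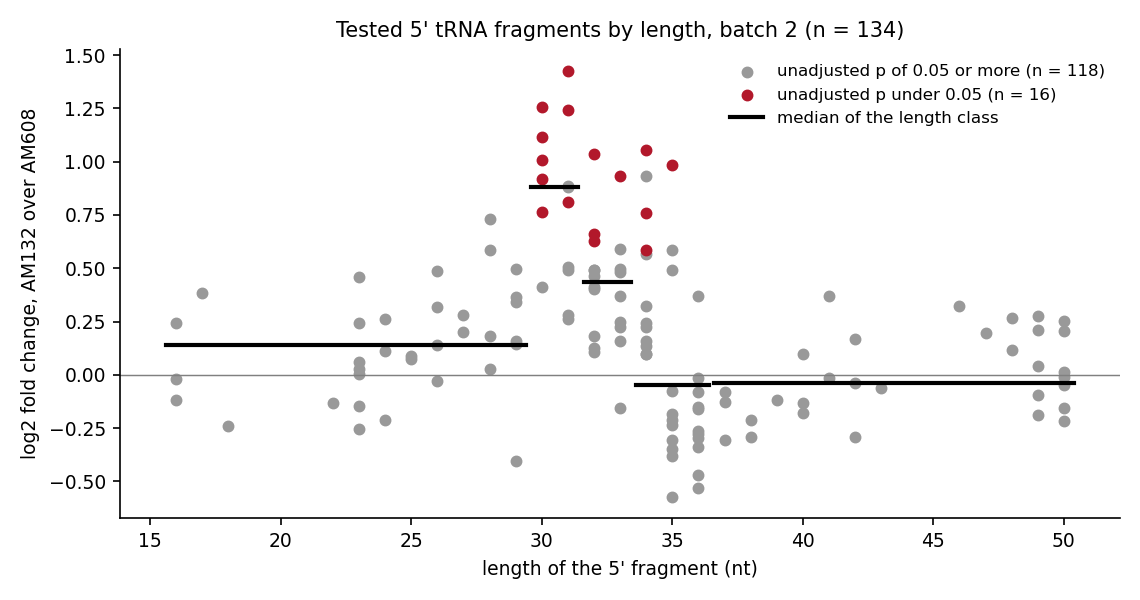
Log2 fold change of AM132 over AM608 (y axis) of the 134 tested 5' tRNA fragments against their length in nt (x axis), in red where the unadjusted p is under 0.05, with black lines at the median of each length class. The 15 fragments of 30 and 31 nt all lie above 0 (median 0.88), and the class of 34 to 36 nt is centred near 0 (median -0.05).

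Lysine fragments, named in the study's title, had 97 tested members, 40 positive and 57 negative, with a median of -0.13 and 0 calls. The one of smallest p was again a 31 nt 5' fragment, of LysCTT:
tRF-31-PSQP4PW3FJI0B: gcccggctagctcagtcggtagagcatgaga
It had 1115, 3165 and 7381 CPM in AM132 against 940, 2407 and 3357 in AM608 (0.81 ± 0.37; edgeR adjusted p = 0.974), and the ranges overlapped. The 2 LysCTT 5'-halves of 33 nt, tRF-33-PSQP4PW3FJI0V (0.59 ± 0.33) and tRF-33-PSQP4PW3FJI0W (0.48 ± 0.30), and the internal LysTTT fragment tRF-46-VIJMRPFQJDZXHY13KK0 (-0.42 ± 0.22) followed, with the same edgeR adjusted p. By amino acid, glutamate fragments had 42 of 88 positive (median -0.03), histidine 19 of 36 (0.09), glycine 19 of 50 (-0.06) and valine 12 of 17 (0.12).

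The make-up of the tRF pool varied widely between libraries of either group, and no class passed. Lysine 5'-tRFs of 47 to 50 nt took 11.12, 34.8 and 57.2% of a library's tRF counts (lowest, median and highest) in AM132 against 4.07, 20.1 and 59.8% in AM608. AM132 12 and AM608 8 were the highest, and the ranges overlapped almost wholly. 5'-tRFs of all kinds took 28.8, 49.2 and 65.8% in AM132 against 22.4, 37.03 and 69.2% in AM608, a difference of means of 5.55 percentage points (exact permutation p = 0.430). Internal fragments took 19.9, 29.8 and 40.3% in AM132 against 16.6, 36.2 and 49.0% in AM608, a difference of -5.67 points (exact permutation p = 0.215). 5'-halves differed by 0.18 points, lysine fragments by 0.55 and glutamate fragments by 0.06. Of 27 fragment types and amino acids 0 passed, with an adjusted p of 0.987 for each named here. Counting error on such a share, with reads taken as independent, was at most 0.423 points either way in any library (Wilson 95% interval). The libraries had 1.65, 2.17 and 3.14 tRF counts per 100 miRNA counts in AM132 against 1.27, 2.33 and 3.69 in AM608, a log2 difference of -0.05 (exact permutation p = 0.812).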

How the data were processed

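The authors deposited 2 tables of raw counts, whole reads per mature miRNA and per tRF, without normalisation. Per the labels' protocols, RNA (integrity number above 8.4) was extracted with a miRNeasy kit, and 200 ng went into NEBNext small RNA libraries, sequenced on a NextSeq 500. The submitters' processing notes name FastQC; the genome build, the aligner and the miRNA annotation are not given in the sources used here. The tRF names are of the MINTmap type. For at least 4439 of 17051 tRFs the table lists a tRNA position beyond the mouse chromosomes, so no tRF coordinates are given, and the tRNA of a fragment is that of the table. How reads shared between miRNAs or tRNAs were assigned is not given either.

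Of 1978 miRNAs 550 had 0 counts in the 16 libraries, and of 17051 tRFs 6107. Features kept by filterByExpr (minimum count 10, minimum total 15) were scaled by TMM per table and tested with edgeR 4.0.16 quasi-likelihood F tests in R 4.3.3, with Benjamini-Hochberg adjustment at 0.05. The SE is the absolute fold change over the square root of F. Arm ratios, log2 of 3p over 5p CPM with a prior of 1 CPM, were tested with limma 3.58.1. Single values were tested by exact permutation over 12870 splits, on log2 CPM with a prior count of 2, and shares were adjusted over 27 classes. The fits were tested on simulated data. DESeq2 1.42.0 and other alternatives are given below; the fit without AM132 12 and AM608 8 was added after seeing the data. No 2 libraries of a group were duplicates, since chi-square over its degrees of freedom was at least 5.02.

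The libraries compared were set by labels, while the lists, the alternatives and the features examined were chosen with earlier results of these data known. Named features are those past the threshold with at least 10 CPM; the first 5 by p in a table with under 5 such; the partner arm of a called miRNA; all arms of miR-132 and miR-212; miR-194-5p; tested members of the miR-34 and miR-449 family; the first 2 by p in every other list; and the first 4 lysine fragments by p. Anything else was named with its values known. P-values measure the spread between these mice. The Wilson intervals cover counting error only and treat reads as independent. Reads carry no molecular identifiers, so copies of the same molecule cannot be told apart, and these intervals can be too narrow.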

Additional observations from a re-analysis of the deposited data

Results flagged for a closer look

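In 136 groups of 8 values the highest or lowest library was set against the nearest of the others (Dixon's test), and 31 stood apart. Chance gives about 1 in 20 for independent groups. These groups share libraries and mostly hold features named from the same values, so that rate is no yardstick for the 31. AM132 6 accounts for 20 of the 31. In log2 CPM, AM132 6 was the lowest AM132 library for miR-132-3p (6.22), miR-34b-3p (6.37), miR-7a-2-3p (6.15) and miR-188-5p (2.97). It was the highest for miR-148a-3p (17.30), miR-21a-5p (13.92), miR-200b-3p (12.94), miR-378a-3p (11.72), miR-1a-3p (11.71), miR-182-5p (10.50), miR-203-3p (9.11) and miR-194-5p (8.82). The same held for miR-142a-5p (8.68), miR-192-5p (8.67), miR-96-5p (8.45), miR-10b-5p (8.27), miR-133a-3p (8.15) and miR-10a-5p (7.82). Its log2 ratios of the 3p to the 5p arm were the lowest for miR-132, at -3.85, and the highest for miR-34c, at -3.68.

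AM608 5 was the highest AM608 library for miR-375-3p (13.97 log2 CPM), miR-378a-3p (9.69) and miR-203-3p (7.78), and the lowest for miR-215-5p (1.84). AM608 11 was the highest for miR-21a-5p (12.95) and AM608 9 the lowest for miR-188-5p (3.65). Among tRFs, AM132 11 was the lowest AM132 library for tRF-23-WUH6QE3005 (6.42 log2 CPM) and AM132 12 for tRF-33-PSQP4PW3FJI0V (7.67), which was highest in AM608 9 within AM608 (10.09). The log2 CPM values carry a prior count of 2, which lifts levels that rest on few reads. AM608 12 had the highest shares of 3'-tRFs (8.52%) and 3'-halves (2.86%) in AM608.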

How the results depend on the processing

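Of 2007 values recomputed under alternatives, 1897 kept their direction and their side of the threshold or, for counts of calls, lay within a factor of 1.5. DESeq2, limma-voom with sample quality weights and the replicate block each called 2 miRNAs, let-7b-3p and miR-34c-3p, and the fit without AM132 5, AM132 6 and AM608 5 called 2, miR-132-3p and miR-34c-3p. With no filter on low counts 1 tRF passed (tRF-27-3JVIJMRPFQ4, lower) and 7 differed between batch 2 and the others. Leaving out 1 library at a time gave 0 to 2 miRNA calls, 0 to 2 arm ratio calls and 0 tRF calls, a miR-132-3p difference of -1.03 to -0.60, and a log2 difference in tRFs per miRNA count of -0.18 to 0.040.

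Signs turned for values that had not passed; the cause was not tested. With 1 common effect over 32 libraries these were miR-212-5p (-0.00186), miR-34a-5p (0.12), miR-34b-5p (0.10), miR-34b-3p (0.12), miR-211-5p (-0.063), miR-338-3p (0.021), miR-219a-5p (0.041) and miR-145a-3p (-0.034). With limma-voom they were miR-34b-5p (0.041) and miR-449a-5p (-0.10). Without the 3 libraries they were miR-34b-5p (0.061), miR-375-3p (0.034) and the shares of 5'-halves (-1.37 points), 3'-tRFs (-0.026) and glutamate (-1.72). miR-375-3p was 0.63 in DESeq2 and 0.070 under the block. Without fragments of 47 to 50 nt the 3'-half share differed by 0.026 and the lysine share by -3.86 points. With 1 library left out, ranges that crossed 0 were -0.13 to 0.032 (miR-34a-5p), -0.040 to 0.028 (miR-34b-5p), -0.084 to 0.19 (miR-449a-5p), -0.23 to 2.59 (miR-96-5p), -3.57 to 1.45 (miR-375-3p), -1.62 to 4.37 (miR-200b-3p), -0.20 to 2.54 (miR-182-5p) and -0.019 to 0.25 (miR-21a-5p). For shares they were -1.26 to 1.91 (5'-half), -0.10 to 0.58 (3'-tRF), -0.18 to 0.086 (3'-half), -1.18 to 2.72 (lysine) and -1.67 to 2.12 points (glutamate).

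Same-numbered libraries correlated at -0.33 to 0.56, above 0.1 in 7 of 8 pairs, and 3 of 16 libraries correlated best with their own number. These values do not decide whether the numbers pair the mice. No label pairs them, and the main fits were left unpaired. Under the replicate block the miRNA calls were the 2 above, the arm ratio calls 1 and the tRF calls 0. The difference in miR-132-3p was -0.93 (exact permutation over pairs, p = 0.0078, the smallest that 256 sign patterns can give).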
